A study of Caenorhabditis elegans with 6 samples.

Results

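UM10, a Caenorhabditis elegans strain that makes human alpha-synuclein in neurons, was set against the wild-type strain N2 by RNA sequencing of whole animals. The libraries compared were the 2 UM10 libraries whose titles name the csgA(-) food and the 2 N2 libraries, which together are 4 of the 6 libraries of the series, and the comparison ran over the 15331 genes that could be tested out of 46778 identifiers. UM10 has the genotype aex-3p::alphasynA53T, in which the promoter of aex-3, a gene active in neurons, drives alpha-synuclein with the A53T substitution of inherited Parkinson's disease. N2 is labelled wild type and carries no transgene. All animals of both strains were labelled L4, the last larval stage, and were raised from eggs on Escherichia coli lawns.

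By the titles the UM10 animals ate csgA(-) bacteria. The N2 titles say only WT, which may name the bacteria or the worm genotype. It was read as the K12 strain BW25113, because no N2 library on csgA(-) is named. On this reading strain and food differ together in this comparison and cannot be told apart. The names of the deposited count tables give these UM10 libraries the K12 food instead, in which case only the strain differs. No other label settles the point, and the group is therefore called UM10 labelled csgA(-) throughout. The other 2 libraries, UM10 labelled K12, shared in the estimate of the spread and are given as side values. UM10 is 1 strain carrying 1 transgene, named unkIs7 in the titles, so an effect of the protein and an effect of the insertion or strain background cannot be told apart. The labels do not say whether the libraries of a group came from separate cultures, and p-values then measure only the spread between these libraries, which may be technical.

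Alpha-synuclein is a presynaptic protein that forms amyloid aggregates in Parkinson's disease, and worm strains that express it are used as models of that process. CsgA is the main subunit of curli, the amyloid fibre on the surface of enteric bacteria, and bacteria without csgA make no curli. In a worm that is passing from larva to adult, the epidermis secretes a new cuticle in each moulting cycle, while the germline turns from making sperm to making oocytes, which are filled with yolk and coated with an eggshell.

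The libraries held 22657727 to 23532382 gene counts. N2 replicate 1 stood apart in composition: its TMM factor, which corrects for a few abundant genes taking many reads, was 0.61 against 1.02 to 1.2 elsewhere, and the share of its counts in the 10 top genes was 9.2%, where the other libraries had 5.82% to 7.64%. Levels are given as TMM-scaled CPM, counts brought to a common library size with these factors. So scaled, all genes tested summed to 1641000 CPM in N2 replicate 1 and to 834100 to 984900 CPM in the other libraries. Part of the high levels of N2 replicate 1 given below therefore comes from its factor. Between replicates the Pearson correlation of log2 CPM across genes was 0.948 to 0.959, and the lowest value between any 2 libraries was 0.849, between N2 replicate 1 and the first UM10 library labelled csgA(-). In bulk RNA of whole animals, fewer cells of a type and less RNA per cell cannot be told apart, and this holds for every group of genes below.

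At an adjusted p under 0.05 (quasi-likelihood F test of edgeR, Benjamini-Hochberg), 1388 genes were called, 9.05% of those tested. Of these, 605 (3.95%) were higher and 783 (5.107%) lower in UM10 labelled csgA(-) than in N2. An unadjusted p under 0.05 was found for 4347 genes (28.4%), and the libraries of both groups did not overlap for 9320 (60.8%), so that absence of overlap alone sets no gene apart. Scaling by upper quartiles gave 452 higher and 920 lower, and the median log2 fold change of all genes tested was -0.07 in place of 0.07. The share called lower was largest among abundant genes: of 1622 genes with a mean over 100 CPM, 50 were higher and 173 (10.7%) lower. Against UM10 labelled K12, with which it shares the strain, UM10 labelled csgA(-) had 0 genes called. Before adjustment 1521 genes (9.92%) lay under 0.05 there, and DESeq2 called 243.

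**Figure D1:**
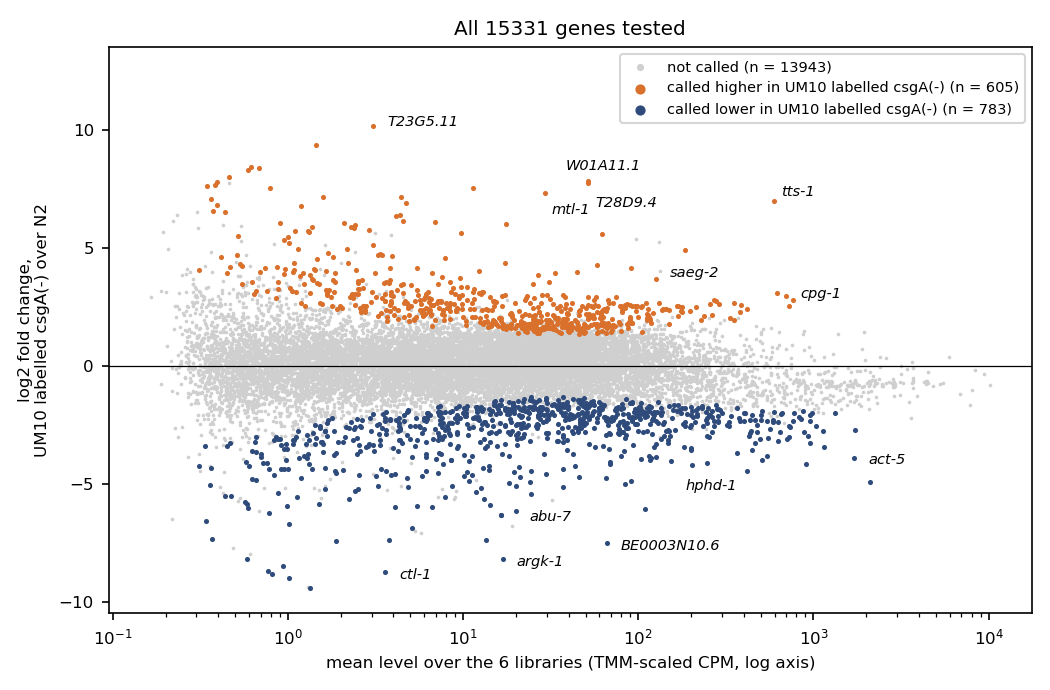
Log2 fold change of UM10 labelled csgA(-) over N2 (vertical axis) against the mean level over 6 libraries in TMM-scaled CPM (log axis), 1 point per gene tested. Of 15331 genes, 605 were called higher (orange) and 783 lower (blue), and on the right side, above 100 CPM, the lower calls outnumber the higher calls by 173 to 50; points far out on the left rest on few counts, and their fitted values depend on the prior count.

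The count changed with the libraries used. It also fell when a library of UM10 labelled K12, which is not compared, was left out. Each such fit has fewer residual degrees of freedom, so lost calls cannot be put down to the library left out alone. Without N2 replicate 1 there were 157 calls, 18 higher and 139 lower, and without the first UM10 library labelled csgA(-) there were 394, of which 126 were higher. Without the second UM10 library or N2 replicate 2 there were 1355 and 1544. With each of the 4 libraries left out in turn, 100 of the 1388 genes kept their call in all 4 fits, 15 of them higher and 85 lower, and these are pointed out below as kept. A call of a gene named below that is not pointed out as kept was lost in at least 1 of these 4 fits. For most of those described singly the adjusted p without the library concerned is given, and for genes named only as members of a list it is not.

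**Figure D2:**
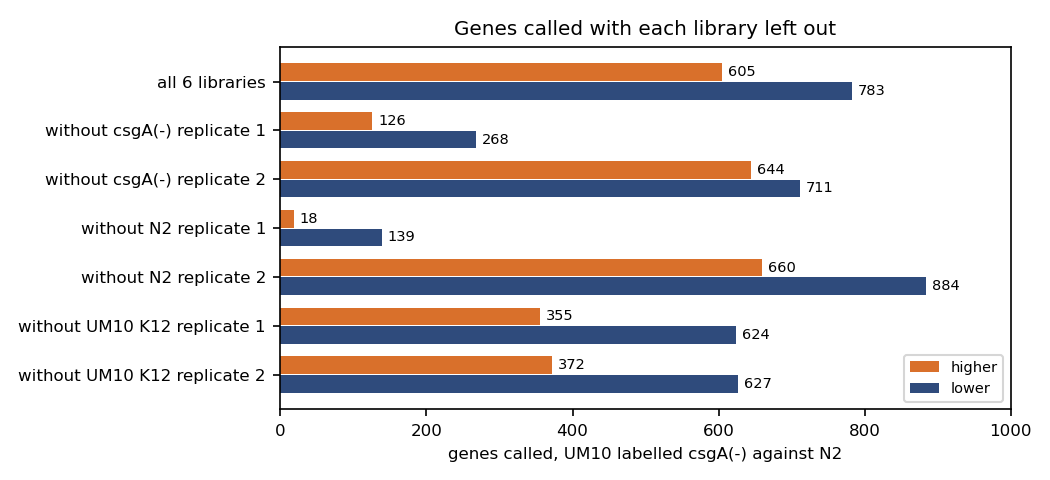
Number of genes called higher (orange) and lower (blue) in UM10 labelled csgA(-) against N2 (horizontal axis) with all 6 libraries and with each library left out. The counts are 605 and 783 with all libraries and 18 and 139 without N2 replicate 1.

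Markers of tissue and stage were read first. None of the listed markers of body wall muscle, pharynx, neurons, germline, sperm, adults, males or coelomocytes was called. The summed muscle markers were at 9720 and 9510 CPM in UM10 labelled csgA(-) and at 10100 CPM in each N2 library, and the summed neuron markers were at 835 and 840 CPM in UM10 labelled csgA(-) against 990 and 602 CPM in N2. Of 6 epidermal (hypodermal) markers, 4 were lower, with sums of 411 and 331 CPM in UM10 labelled csgA(-) and of 998 and 1570 CPM in N2. Those lower were wrt-2 and the collagen genes dpy-7, rol-6 and bli-1, while elt-3 and nhr-23 were not called. Of 8 oocyte markers, 6 were higher, with sums of 4290 and 2950 CPM in UM10 labelled csgA(-) against 1020 and 1030 CPM in N2. The markers oma-1, oma-2, rme-2, puf-5, perm-2 and perm-4 are also on the oocyte and eggshell list below, so these readings are not independent. Of 7 intestinal markers tested, only act-5 was called, and it was lower. Genes known for adult expression were present in every library of these animals labelled L4: the collagen gene col-19 was at 1673 and 949 CPM in UM10 labelled csgA(-) and at 1487 and 572 CPM in N2, and the yolk gene vit-2 was at 13910 and 4045 CPM in UM10 labelled csgA(-) and at 13480 and 6681 CPM in N2. How far epidermal, oocyte and stage markers account for the gene groups below was not tested.

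The aex-3 gene itself, whose promoter drives the transgene, was at 9.82 and 27.8 CPM in UM10 labelled csgA(-) and at 21.2 and 24.2 CPM in N2 (log2 fold change -0.27, SE 0.50, adjusted p = 0.752). The human coding sequence is not among the worm identifiers counted, so the labels of strain have no direct check here.

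A handful of genes were almost silent in N2, or low there in the case of saeg-2, and higher in every UM10 library. T28D9.4 (chromosome II, 6476955 to 6478073 in WBcel235) was at 84.3 and 69.8 CPM in UM10 labelled csgA(-) and at 0.435 and 0.303 CPM in N2. W01A11.1 (V, 6499224 to 6502428) was at 80.9 and 68.3 CPM in UM10 labelled csgA(-), against 0.290 and 0.346 CPM in N2. Both had a log2 fold change near 8 (7.73 and 7.83, SE 0.53 each, adjusted p = 7.41e-05), and both stood as high in UM10 labelled K12, at 71.8 to 86.4 CPM. The non-coding RNA gene T23G5.11 (III, 9242530 to 9242726) had no count in either N2 library and 4.40 and 7.72 CPM in UM10 labelled csgA(-), at least 34.9-fold higher against a floor of 3 counts per library. Its neighbour saeg-2 (III, 9240363 to 9242514) was at 99.97 and 170.7 CPM in UM10 labelled csgA(-), at 12.3 and 9.12 CPM in N2 and at 238 and 228 CPM in UM10 labelled K12. On the other side of T23G5.11 lies dat-1 (III, 9242975 to 9246802), described below, which was not called. Whether the reads of saeg-2 and T23G5.11 came from their own chromosomal copies was not tested. For T28D9.4, W01A11.1, T23G5.11 and saeg-2 the N2 libraries lay below every UM10 library. These genes were chosen with earlier results of these data known, so this is no support. Of all genes tested, 60.8% did not overlap between UM10 labelled csgA(-) and N2. All 4 calls were kept. Because counting did not use strand, reads of overlapping genes cannot be told apart: T28D9.4 overlaps del-10, W01A11.1 overlaps moc-2, saeg-2 overlaps T23G5.9 and T23G5.10, and among genes described below acdh-2 overlaps ins-13, lon-3 overlaps ogdh-2, col-47 overlaps col-46, sip-1 overlaps F43D9.8, hsp-70 overlaps uggt-2, ugt-47 overlaps srd-49 and lin-42 overlaps 4 small genes.

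A second set was far above N2 in the libraries labelled csgA(-) and lay between in those labelled K12. The long non-coding RNA tts-1, known in long-lived mutants as a transcript that sits on ribosomes, was at 2020 and 1223 CPM in UM10 labelled csgA(-), at 20.7 and 4.84 CPM in N2, and at 137 and 147 CPM in UM10 labelled K12. Its log2 fold change over N2 was 6.99 (SE 0.83, adjusted p = 0.00482, kept). The metallothionein gene mtl-1, whose protein binds metal ions, was at 76.7 and 82.4 CPM in UM10 labelled csgA(-) against 0.797 and 0.259 CPM in N2, and at 13.2 and 1.55 CPM in UM10 labelled K12. Its log2 fold change was 7.32 (SE 1.00, adjusted p = 0.00620, and 0.0598 without N2 replicate 1). The lysozyme gene ilys-3, which acts against bacteria in the gut, was at 25.3 and 63.7 CPM in UM10 labelled csgA(-) and at 0.797 and 0.605 CPM in N2 (log2 fold change 6.0, SE 0.62, adjusted p = 0.00291, kept). None of tts-1, mtl-1 and ilys-3 overlapped between UM10 labelled csgA(-) and N2, but genes with the largest changes were chosen on that condition.

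The beta-tubulin gene tbb-6, chosen after its values were seen, had its highest levels in the libraries labelled csgA(-). It was at 91.3 and 81.1 CPM in UM10 labelled csgA(-), at 7.97 and 3.42 CPM in N2 and at 6.31 and 10.2 CPM in UM10 labelled K12 (log2 fold change over N2 3.93, SE 0.51, adjusted p = 0.00604, kept). Its difference from UM10 labelled K12 was not called (log2 fold change 3.38, SE 0.50, adjusted p = 0.0900). Mitochondrial ribosomal RNA showed a similar order. WBGene00014454 (MtDNA, 898 to 1593) was at 607 and 334 CPM in UM10 labelled csgA(-), at 17.2 and 14.7 CPM in N2 and at 77.8 and 52.8 CPM in UM10 labelled K12. Its log2 fold change over N2 was 4.88 (SE 0.54, adjusted p = 0.00425, kept). Poly-A RNA was selected before sequencing, and how much mitochondrial ribosomal RNA passed that step in each library was not tested.

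Other large increases were those of 1 library. The pseudogene WBGene00012618 was at 66.4 CPM in the first and 1.73 CPM in the second UM10 library labelled csgA(-), against 0.0724 and 0.259 CPM in N2. Y38H6C.8, from the same stretch of chromosome V, was at 24.4 and 0.883 CPM in UM10 labelled csgA(-) and at 0.145 and 0.0432 CPM in N2, and W02D7.11 was at 8.42 and 0.461 CPM in UM10 labelled csgA(-), against 0 and 0.0432 CPM in N2. Without the first UM10 library their log2 fold changes were 3.12, 3.17 and 3.76 in place of 7.51, 7.15 and 7.13, and their adjusted p was 0.166, 0.260 and 0.241. Of the remaining genes with large increases, epic-3 was at 14.1 and 5.76 CPM in UM10 labelled csgA(-) and at 0 and 0.130 CPM in N2, which rests on 3 N2 counts (kept). The F-box gene fbxa-99, which overlaps oac-20, was at 5.26 and 1.61 CPM in UM10 labelled csgA(-) and had no count in N2, at least 19.8-fold higher (adjusted p = 0.00933, and 0.0633 without N2 replicate 1).

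**Figure D3:**
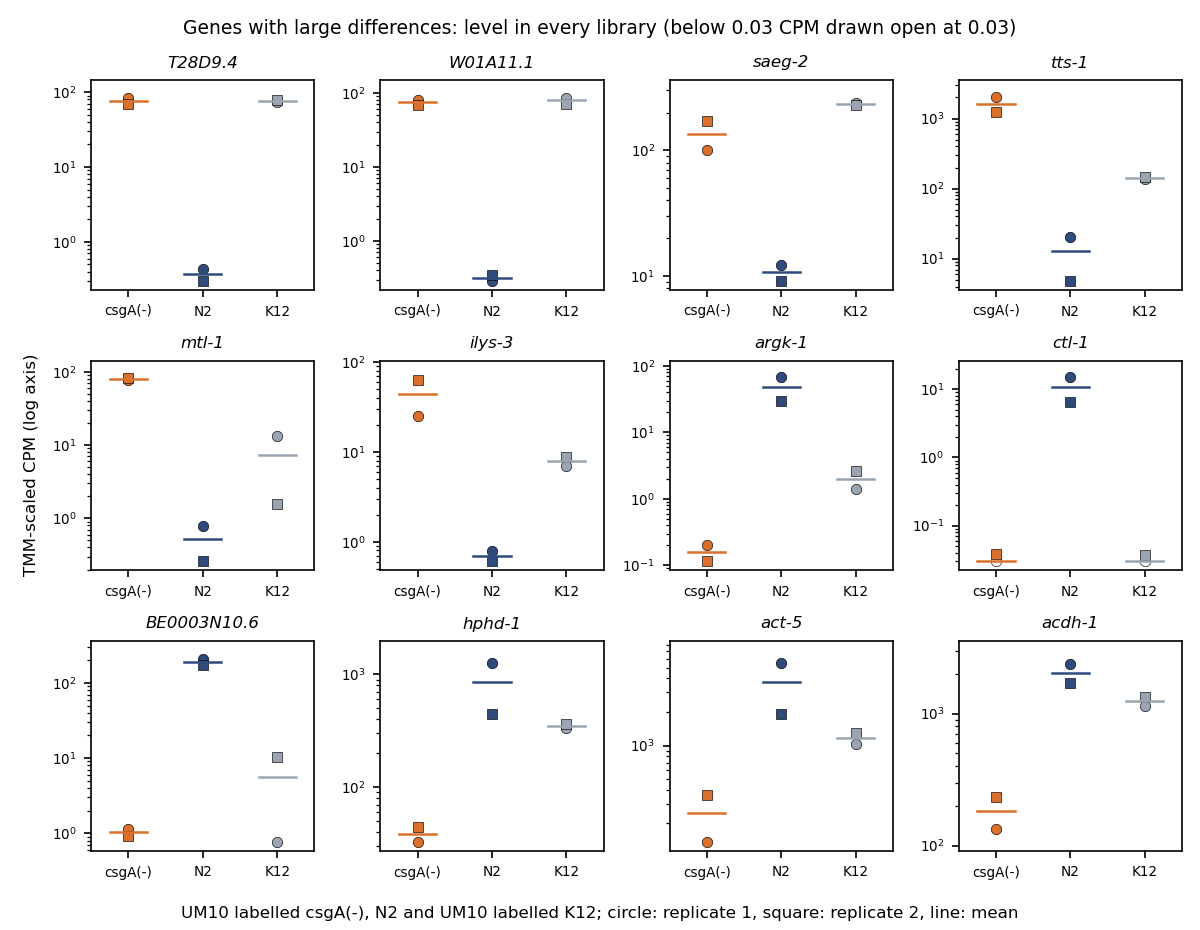
Level of 12 genes in every library (TMM-scaled CPM, log axis) in UM10 labelled csgA(-), N2 and UM10 labelled K12, with replicate 1 as a circle, replicate 2 as a square and the mean as a line. T28D9.4 and W01A11.1 are equally high in both UM10 groups, whereas tts-1 is at 2020 and 1223 CPM in UM10 labelled csgA(-) and at 137 and 147 CPM in UM10 labelled K12.

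Among genes lower in UM10 labelled csgA(-), several were almost silent there. The catalase gene ctl-1 (II, 14303568 to 14306260), whose enzyme breaks down hydrogen peroxide, was at 0 and 0.0384 CPM in UM10 labelled csgA(-) and at 14.9 and 6.53 CPM in N2. In UM10 labelled K12 ctl-1 was as low, at 0 and 0.0368 CPM. The ratio of N2 to UM10 labelled csgA(-) was 540, with a counting interval of 97.0 to 21300 because it rests on 1 count. The arginine kinase gene argk-1 (V, 16103894 to 16105952), whose enzyme buffers ATP, was at 0.205 and 0.115 CPM in UM10 labelled csgA(-), at 67.4 and 29.6 CPM in N2 and at 1.39 and 2.58 CPM in UM10 labelled K12. Its log2 fold change was -8.20 (SE 0.73, adjusted p = 0.000836). E03H4.4 had no count in UM10 labelled csgA(-) and 3.84 and 3.33 CPM in N2, at least 30.1-fold lower, and 0.293 and 0.553 CPM in UM10 labelled K12. The lysosomal lipid-binding protein gene lbp-8 had no count in UM10 labelled csgA(-) either and was at 2.03 and 1.82 CPM in N2, at least 16.1-fold lower. In UM10 labelled K12 lbp-8 was at 0.953 and 0.81 CPM. BE0003N10.6 was at 1.15 and 0.922 CPM in UM10 labelled csgA(-), at 209.7 and 172 CPM in N2 and at 0.77 and 10.5 CPM in UM10 labelled K12 (log2 fold change over N2 -7.52, SE 1.04, adjusted p = 0.00620). These 5 calls were kept. No library of UM10 labelled csgA(-) reached an N2 library, but genes with the largest changes were chosen on that condition, so it is no support.

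The acyl-CoA dehydrogenase gene acdh-2 was at 0 and 0.115 CPM in UM10 labelled csgA(-) and at 14.2 and 7.70 CPM in N2, a ratio of N2 to UM10 labelled csgA(-) of 184 (counting interval 62.9 to 891). In UM10 labelled K12 it was at 0 and 0.553 CPM. Its adjusted p was 0.0113, and 0.0730 without N2 replicate 1. By contrast nspe-1 was at 0 and 0.230 CPM in UM10 labelled csgA(-) and at 28.5 and 0.389 CPM in N2, so that its high level was that of N2 replicate 1 (adjusted p = 0.0439, 0.654 without that library and 0.130 without the first UM10 library).

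Among the genes with the largest decreases in CPM were act-5, Y39B6A.1, pho-11 and dct-16, and acdh-1 and sams-1, which are described with their pathways below. The actin gene act-5, which builds the microvilli of intestinal cells, was at 136 and 362 CPM in UM10 labelled csgA(-) and at 5538 and 1901 CPM in N2 (-3.90, SE 0.75, adjusted p = 0.0143). Its adjusted p was 0.110 without the first UM10 library and 0.0537 without N2 replicate 1. Y39B6A.1 was at 140 and 121 CPM in UM10 labelled csgA(-) and at 6486 and 1578 CPM in N2 (-4.95, SE 0.84, adjusted p = 0.0107, and 0.0552 without the first UM10 library). The acid phosphatase gene pho-11 was at 316 and 93.2 CPM in UM10 labelled csgA(-) and at 2781 and 1200 CPM in N2, and dct-16 was at 157 and 63.1 CPM in UM10 labelled csgA(-) and at 2671 and 1281 CPM in N2. Without N2 replicate 1 or the second UM10 library neither was called (adjusted p = 0.0527 to 0.101). N2 replicate 1 was the higher N2 library for all 4 genes. Summed over the intestinal markers the levels were 1130 and 913 CPM in UM10 labelled csgA(-) and 7930 and 3000 CPM in N2, a sum that holds act-5.

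Genes of the translocon, through which secreted proteins enter the endoplasmic reticulum, were put together as a list of 9 Sec61 and TRAP subunits after their values were seen, so that their count is a description only. Of the 9, 7 were called lower and none higher (median log2 fold change -2.39), where 5.107% of all genes tested were called lower. The channel gene sec-61.A was at 394 and 704 CPM in UM10 labelled csgA(-) and at 4620 and 2575 CPM in N2 (-2.71, SE 0.63, adjusted p = 0.0251). The accessory gene trap-1 was at 194 and 316 CPM in UM10 labelled csgA(-) and at 2410 and 1226 CPM in N2 (-2.84, SE 0.58, adjusted p = 0.0167). Without N2 replicate 1 or without the first UM10 library 0 of the 9 were called, at adjusted p of 0.0637 and 0.223 for sec-61.A, which was at 0.0642 without the second UM10 library, and of 0.0511 and 0.149 for trap-1.

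Genes of the oocyte and eggshell moved together. Of 31 genes on that list, 26 (83.9%, against 3.95% of all genes tested) were called higher and none lower, all 31 had a positive log2 fold change, and their median was 2.48 against 0.07 over all genes. The summed level was 12020 and 8153 CPM in UM10 labelled csgA(-), 1765 and 2591 CPM in N2 and 7092 and 11260 CPM in UM10 labelled K12. Without the first UM10 library or without N2 replicate 1 most of these calls were lost, and the median was then 2.06 and 1.89. None of the 26 calls was kept in all 4 fits.

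Within that list, the eggshell proteoglycan gene cpg-1 (III, 4489359 to 4491392) was at 1505 and 809 CPM in UM10 labelled csgA(-) and at 94.2 and 201 CPM in N2 (log2 fold change 2.97, SE 0.63, adjusted p = 0.0190). Its partner cpg-2 was at 1299 and 857 CPM in UM10 labelled csgA(-), against 102 and 213 CPM in N2 (2.78, SE 0.58, adjusted p = 0.0186). The adjusted p without the first UM10 library was 0.111 for cpg-1 and 0.113 for cpg-2, and without N2 replicate 1 it was 0.0959 and 0.0776. The pseudophosphatase genes egg-4 and egg-5, which act at the transition from egg to embryo, are close paralogs and had the smallest p of the list. The level of egg-5 was 128 and 99.0 CPM in UM10 labelled csgA(-) and 13.6 and 22.8 CPM in N2 (2.63, SE 0.46, adjusted p = 0.0110, and 0.0730 without N2 replicate 1). The maternal RNA-binding protein genes oma-1, oma-2, puf-5, pos-1, mex-3 and spn-4 and the yolk receptor gene rme-2 were also called higher, with log2 fold changes of 2.12 to 2.61. The 5 members that were not called were lin-41, mei-1, egg-6, perm-2 and perm-4, with log2 fold changes of 0.66 to 1.82. No cpg or egg gene given here overlapped between the groups, which was a condition for choosing cpg-1 and cpg-2.

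Of 34 genes of germline proliferation and meiosis, 9 (26.5%, against 3.95% of all genes tested) were higher and none lower, and all 34 log2 fold changes were positive (median 1.40). With upper-quartile factors 5 of the 34 were called, and with only the 4 libraries compared 2. Those called were the B cyclin genes cyb-2.1, cyb-2.2 and cyb-3, the replication helicase genes mcm-3, mcm-5 and mcm-7, the mitotic kinase gene air-2 and the P granule genes glh-3 and deps-1. Cyclin cyb-2.1 was at 93.7 and 60.3 CPM in UM10 labelled csgA(-) and at 12.8 and 17.6 CPM in N2 (2.34, SE 0.43, adjusted p = 0.0126, and 0.0795 and 0.102 without the first UM10 library and without N2 replicate 1). Without either of those libraries 0 of the 34 were called, without the second UM10 library 4, and without N2 replicate 2 21. Of 82 sperm genes, 1 was higher (ssp-37) and 1 lower (msp-74), and the summed level was 2533 and 2213 CPM in UM10 labelled csgA(-) and 2111 and 1893 CPM in N2.

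Vitellogenins, the yolk proteins that the intestine makes for oocytes, did not follow the oocyte genes. Of 6 genes, vit-1 and vit-4 (33.3%, against 5.107% of all genes tested) were called lower and none higher. The level of vit-1 was 222 and 109 CPM in UM10 labelled csgA(-), 1330 and 1497 CPM in N2 and 357 and 742 CPM in UM10 labelled K12 (-3.09, SE 0.60, adjusted p = 0.0152, and 0.0749 without the second UM10 library). The level of vit-4 was 126 and 10.3 CPM in UM10 labelled csgA(-) and 1268 and 906 CPM in N2 (-3.99, SE 0.95, adjusted p = 0.0275, and 0.125 without N2 replicate 1). The UM10 libraries labelled csgA(-) differed among themselves: the summed yolk genes were at 26680 and 6377 CPM there, against 41960 and 22440 CPM in N2. For vit-5 the levels were 4845 and 769 CPM in UM10 labelled csgA(-) and 5575 and 3640 CPM in N2, and for vit-6 they were 7114 and 1416 CPM in UM10 labelled csgA(-), against 18730 and 8609 CPM in N2. Neither gene was called (adjusted p = 0.572 and 0.210), and vit-2 and vit-3 were not called either (adjusted p = 0.906 and 0.120). Counts of these genes are uncertain where near-identical paralogs share reads.

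**Figure D4:**
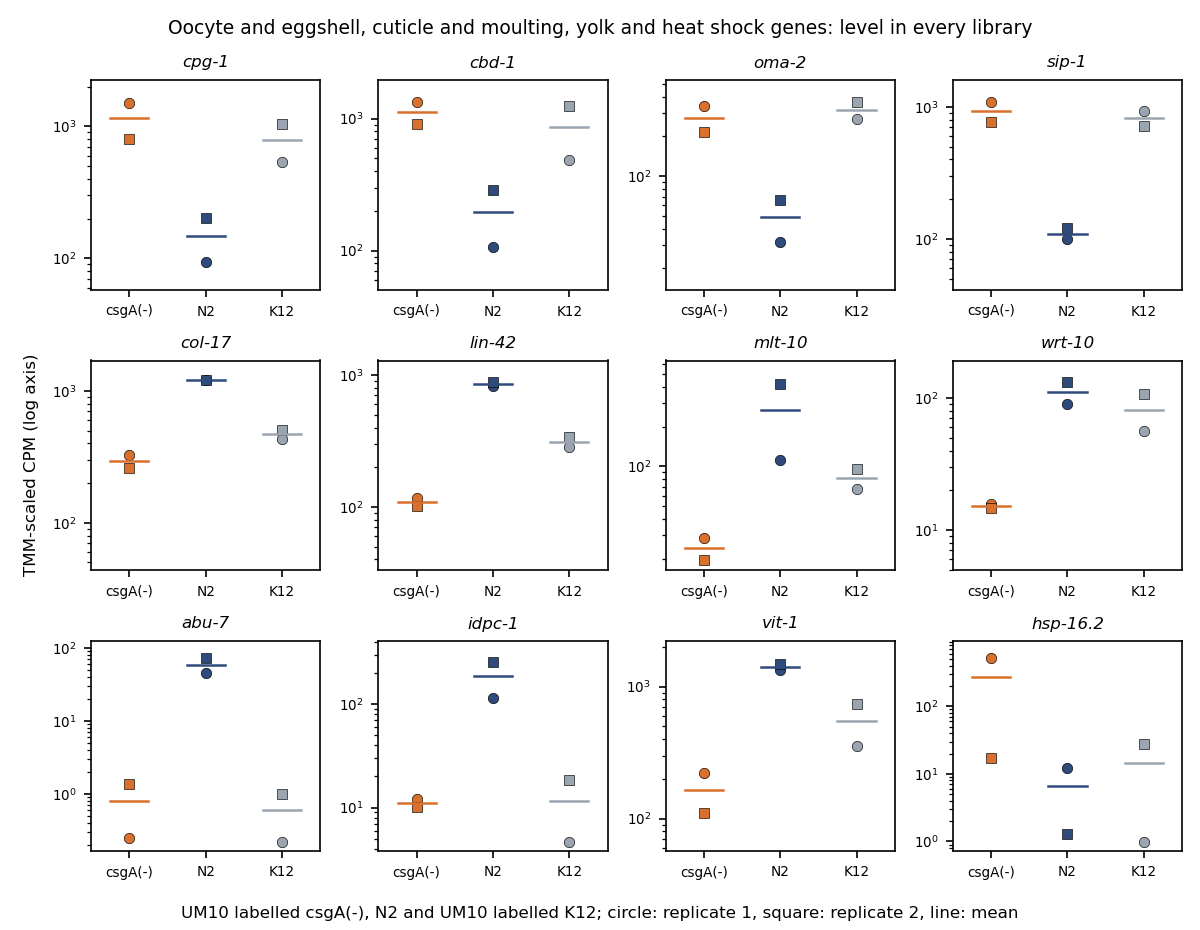
Level in every library (TMM-scaled CPM, log axis) of genes of the oocyte and eggshell, of the cuticle and moulting, of yolk and of heat shock, in UM10 labelled csgA(-), N2 and UM10 labelled K12 (circle: replicate 1, square: replicate 2, line: mean). For cpg-1 both UM10 libraries labelled csgA(-) lie above N2, for lin-42 both lie below, and for hsp-16.2 the first UM10 library is at 522 CPM and the second at 16.9 CPM.

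The body cuticle held more genes called lower in UM10 labelled csgA(-) than any other list. Of 150 cuticle collagen genes tested, 46 (30.7%, against 5.107% of all genes tested) were lower and 8 higher, with a median log2 fold change of -1.40. Among those lower were genes named for the body shape of their mutants, including dpy-2, dpy-3, dpy-7, dpy-8, dpy-9, dpy-10, bli-1, bli-2, rol-6, rol-8, sqt-2 and lon-3. The collagen gene lon-3, which limits body length, was at 20.95 and 18.4 CPM in UM10 labelled csgA(-) and at 143 and 256 CPM in N2 (-3.35, SE 0.46, adjusted p = 0.00620, kept). The larval collagen gene col-17 was at 327 and 259 CPM in UM10 labelled csgA(-), at 1204 and 1209 CPM in N2 and at 432 and 502 CPM in UM10 labelled K12. The collagen gene rol-6, used as a dominant marker in many worm transgenes, was at 90.1 and 93.0 CPM in UM10 labelled csgA(-) and at 324 and 286 CPM in N2 (-1.74, SE 0.42, adjusted p = 0.0301, and 0.0702 to 0.183 without N2 replicate 1 or either UM10 library). The number of collagen genes called lower was 13 and 19 without the first and the second UM10 library, 9 without N2 replicate 1 and 60 without N2 replicate 2. Calls for 5 collagen genes were kept, col-47, dpy-3, dpy-9 and lon-3 lower and col-95 higher.

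Collagen genes did not all move one way. Those higher were col-2, col-36, col-37, col-40, col-51, col-95, col-135 and col-158. The level of col-95 was 82.2 and 138 CPM in UM10 labelled csgA(-), 9.27 and 2.38 CPM in N2 and 82.1 and 36.3 CPM in UM10 labelled K12 (4.26, SE 0.69, adjusted p = 0.00943). The level of col-135 was 29.8 and 43 CPM in UM10 labelled csgA(-) and 3.77 and 5.36 CPM in N2 (2.99, SE 0.43, adjusted p = 0.00620, and 0.0596 without N2 replicate 1). By contrast col-37 and col-51 were at 0.575 to 3.03 CPM in UM10 labelled csgA(-) and had no count in N2. The epidermal markers called lower include dpy-7, rol-6 and bli-1, which are on the collagen list themselves. The epidermal markers nhr-23 and elt-3 were not called. The level of nhr-23 was 71.5 and 76.8 CPM in UM10 labelled csgA(-) and 34.3 and 75 CPM in N2 (log2 fold change 0.44). The level of elt-3 was 35.8 and 66.4 CPM in UM10 labelled csgA(-) and 71.2 and 48.9 CPM in N2 (-0.23).

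The cuticle that lines the pharynx showed the largest median shift of the lists with at least 5 members tested. Of 33 pharyngeal cuticle genes tested, members of the abu, idpc and idpp families of proteins of low complexity, 20 (60.6%) were lower and none higher, with a median log2 fold change of -4.40. Their summed level was 188 and 178 CPM in UM10 labelled csgA(-), 1150 and 1911 CPM in N2 and 191 and 323 CPM in UM10 labelled K12. The gene abu-7 was at 0.247 and 1.34 CPM in UM10 labelled csgA(-), at 45.4 and 71.5 CPM in N2 and at 0.22 and 0.995 CPM in UM10 labelled K12 (log2 fold change over N2 -6.18, SE 0.84, adjusted p = 0.00620). The gene idpc-1, which overlaps sbp-1, was at 12 and 10.1 CPM in UM10 labelled csgA(-), at 114.6 and 256 CPM in N2 and at 4.66 and 18.3 CPM in UM10 labelled K12 (log2 fold change over N2 -4.07, SE 0.67, adjusted p = 0.0101). Both calls were kept, as were those of abu-11, idpc-5 and idpc-7, and neither gene overlapped between the groups. The number called lower was 8 without N2 replicate 1 and 11 to 21 with another of the 4 libraries left out. The abu genes have close paralogs, so counts of single members are uncertain, and the listed general pharynx markers summed to 71.7 and 158 CPM in UM10 labelled csgA(-) and to 90.8 and 350 CPM in N2 with none called.

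Some signals and regulators of the moult were lower as well. Hedgehog-related and ground-like genes encode secreted proteins of the epidermis. Of 44 such genes, 15 (34.1%, against 5.107% of all genes tested) were lower and 2 (4.55%, against 3.95%) higher (median -1.60). Of these wrt-10 was at 15.6 and 14.7 CPM in UM10 labelled csgA(-), at 90.4 and 133 CPM in N2 and at 55.7 and 107 CPM in UM10 labelled K12 (-2.88, SE 0.46, adjusted p = 0.00927, kept). Of 57 genes of moulting and the apical matrix, 12 (21.1%, against 5.107% of all genes tested) were lower and none higher (median -1.34). The moulting gene mlt-10, which overlaps T27A1.3 and lips-7, was at 28.6 and 19.5 CPM in UM10 labelled csgA(-) and at 112 and 419 CPM in N2 (-3.46, SE 0.63, adjusted p = 0.0116, kept). The Period homologue lin-42, which rises and falls with each moult, was at 117 and 102 CPM in UM10 labelled csgA(-), at 832 and 889 CPM in N2 and at 283 and 341 CPM in UM10 labelled K12 (-2.98, SE 0.48, adjusted p = 0.00927, and 0.0556 without the first UM10 library). Of 11 listed genes of stage timing none was called, but lin-42 was counted with the moulting genes and not among these. The lower counts without N2 replicate 1 were 3 for the hedgehog-related and 5 for the moulting genes, and without the first UM10 library they were 11 and 1.

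**Figure D5:**
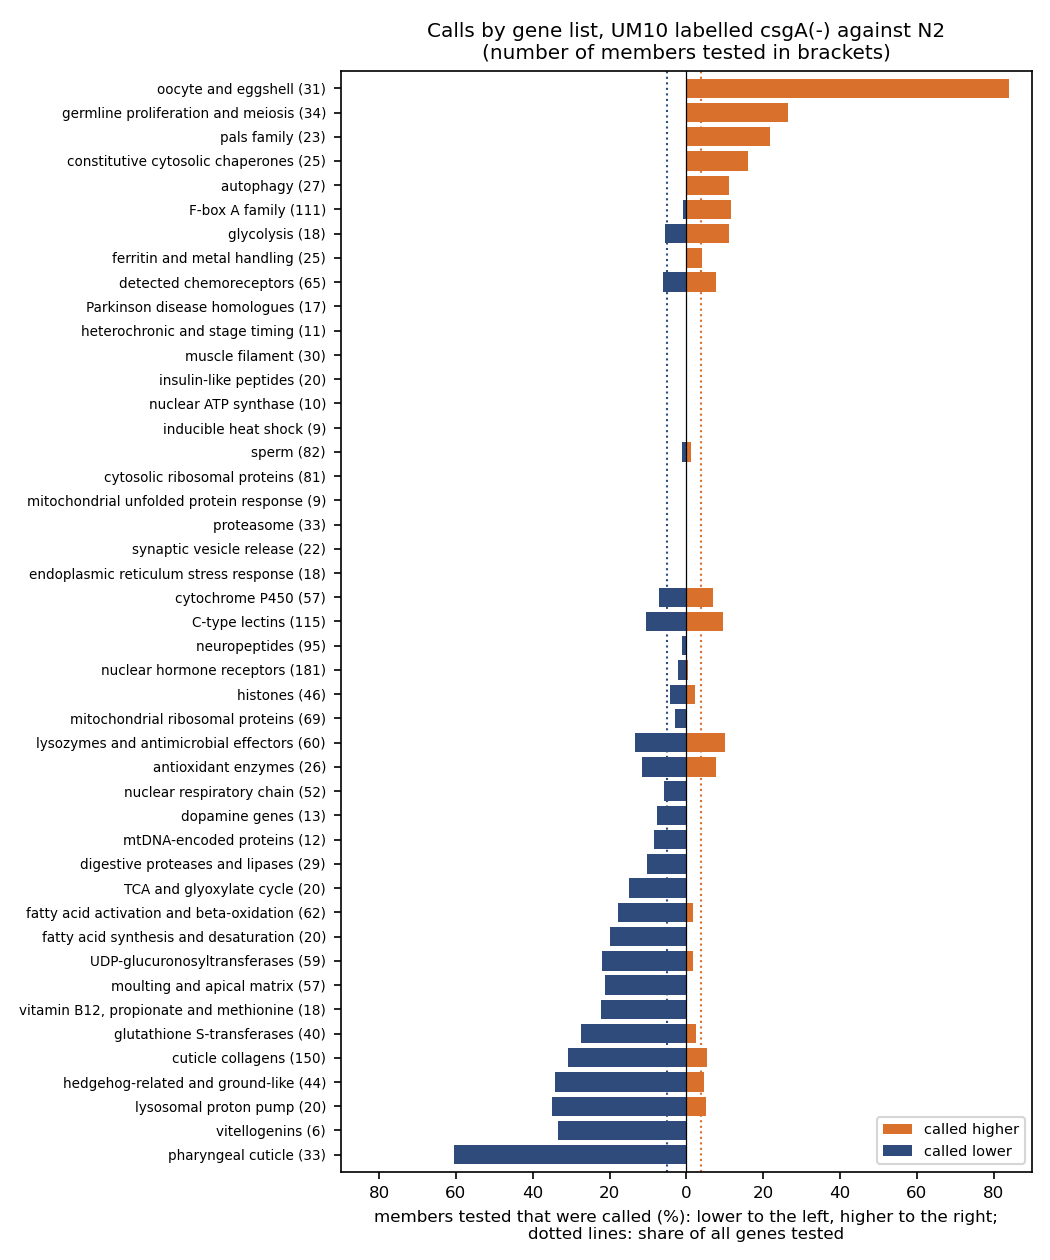
Share of the tested members of each gene list that was called lower (blue, to the left) or higher (orange, to the right) in UM10 labelled csgA(-) against N2, for lists with at least 5 members tested, with dotted lines at the shares of all genes tested (5.107% and 3.95%). Oocyte and eggshell genes reach 83.9% higher, and pharyngeal cuticle genes reach 60.6% lower.

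Several genes that break down fatty acids and propionate were lower. Of 62 genes of fatty acid activation and beta-oxidation, 11 (17.7%, against 5.107% of all genes tested) were lower and 1 higher (median -0.65). The acyl-CoA oxidase gene acox-1.2, whose product shortens side chains in peroxisomes for pheromone synthesis, was at 4.48 and 10.5 CPM in UM10 labelled csgA(-), at 199 and 246 CPM in N2 and at 46.7 and 38.7 CPM in UM10 labelled K12 (-4.89, SE 0.54, adjusted p = 0.00425). The calls of acox-1.2, acox-1.4, ech-1.1 and ech-6 were kept. The 1 gene higher, ech-9, was at 0.575 and 11.5 CPM in UM10 labelled csgA(-) and at 0.0724 and 0.346 CPM in N2, and its adjusted p was 0.0452, and 0.105 to 0.425 without the second UM10 library or either N2 library. With each library left out the number lower was 6 without the first UM10 library and without N2 replicate 1, 13 without the second UM10 library and 16 without N2 replicate 2.

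In the shunt that breaks down propionate when vitamin B12 is short, the first enzyme gene acdh-1 was at 133 and 235.1 CPM in UM10 labelled csgA(-), at 2368 and 1701 CPM in N2 and at 1140 and 1343 CPM in UM10 labelled K12 (-3.47, SE 0.58, adjusted p = 0.0105, and 0.0895 without the first UM10 library). The shunt gene hphd-1 was at 32.7 and 44.7 CPM in UM10 labelled csgA(-), at 1267 and 445 CPM in N2 and at 338 and 365 CPM in UM10 labelled K12 (-4.47, SE 0.63, adjusted p = 0.00620, kept). The hydratase gene ech-6 was at 75.4 and 83.2 CPM in UM10 labelled csgA(-) and at 1599 and 631 CPM in N2 (-3.81, SE 0.59, adjusted p = 0.00916, kept). No library of UM10 labelled csgA(-) reached the lower N2 library for any of these 3 genes, which was a condition for choosing acdh-1. The libraries labelled K12 lay between for each.

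On the list of vitamin B12, propionate and methionine genes, 4 of 18 (22.2%, against 5.107% of all genes tested) were lower and none higher. The other 2 lower genes of that list belong to the handling of sulphur amino acids. The cystathionine lyase gene cth-1 was at 2.34 and 6.87 CPM in UM10 labelled csgA(-) and at 186 and 60.1 CPM in N2 (-4.74, SE 0.68, adjusted p = 0.00620, kept). The S-adenosylmethionine synthetase gene sams-1 was at 94.3 and 529.7 CPM in UM10 labelled csgA(-) and at 2265 and 1938 CPM in N2 (-2.75, SE 0.76, adjusted p = 0.0456, 0.261 without the first UM10 library, and 0.139 and 0.0559 without the first and the second N2 library). Of 7 genes that break down branched-chain amino acids, a list drawn up after the values were seen, 5 were called lower, where 5.107% of all genes tested were, and none higher (bcat-1, ivd-1, dbt-1, bckd-1A and bckd-1B), with 0 called without N2 replicate 1 or without the first UM10 library.

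Of 20 genes of fatty acid synthesis and desaturation, 4 (20%, against 5.107% of all genes tested) were lower and none higher. They were elo-5 and elo-6, elongases of branched-chain fatty acids, elo-9 and the stearoyl-CoA desaturase gene fat-7. The level of elo-6 was 23.5 and 78.8 CPM in UM10 labelled csgA(-), 808 and 534 CPM in N2 and 451 and 316 CPM in UM10 labelled K12 (-3.71, SE 0.65, adjusted p = 0.0110, and 0.0589 and 0.0575 without the first UM10 library and without N2 replicate 1). With either of those libraries left out 0 of the 20 were called.

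Genes of mitochondrial energy supply gave few calls and mostly negative values. Of 52 nuclear genes of the respiratory chain, 3 (5.77%, against 5.107% of all genes tested) were lower (nduv-3, ucr-2.2 and sdha-1), none was higher and 49 log2 fold changes were negative (median -1.19). Of 10 nuclear ATP synthase genes none was called, and of the 12 protein genes of the mitochondrial genome 1 (8.33%) was lower. In the tricarboxylic acid and glyoxylate cycles 3 of 20 were lower (idh-1, sucl-1 and suca-1), and in glycolysis 2 of 18 were higher (gpd-1 and gpd-4) and 1 lower (pyk-2). The summed respiratory chain genes were at 7898 and 7370 CPM in UM10 labelled csgA(-) and at 23480 and 10800 CPM in N2. Most of the difference was thus that of N2 replicate 1, whose levels are scaled up by its TMM factor. Without N2 replicate 1 the median was -0.64 with 0 calls, and without N2 replicate 2 it was -1.61 with 26 lower and 1 higher.

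Of 81 cytosolic ribosomal protein genes 0 were called, and their summed level was 134500 and 140400 CPM in UM10 labelled csgA(-) against 314100 and 135700 CPM in N2. The N2 libraries thus lay above and within the range of UM10 labelled csgA(-), and without N2 replicate 2 30 of these genes were called lower. Of 69 mitochondrial ribosomal protein genes 2 (2.9%, against 5.107% of all genes tested) were lower, mrps-28 and mrps-33.

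Part of the proton pump that acidifies lysosomes and the gut was lower. Of 20 genes, 7 (35%, against 5.107% of all genes tested) were lower and 1 (5%, against 3.95%) higher (median -1.56). The subunit gene vha-12 was at 304 and 383 CPM in UM10 labelled csgA(-), at 2726 and 1265 CPM in N2 and at 660 and 834 CPM in UM10 labelled K12 (-2.54, SE 0.57, adjusted p = 0.0238). Its adjusted p was 0.186 and 0.0830 without the first and the second UM10 library and 0.0590 without N2 replicate 1, and in each of these 3 fits 0 genes of the list were called lower. In autophagy, which delivers cell contents to lysosomes, 3 of 27 genes were higher, none was lower and the median was 0.75. They were lgg-2, atg-13 and epg-4, and without the first UM10 library or either N2 library 0 of the 27 were called. The level of lgg-2, which encodes an autophagosome protein, was 529 and 238 CPM in UM10 labelled csgA(-) and 133 and 67.8 CPM in N2.

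Inducible heat shock genes were a matter of 1 library. Of 9 genes none was called, and their summed level was 1931 and 73.3 CPM in UM10 labelled csgA(-), 87.6 and 5.84 CPM in N2 and 4.25 and 164 CPM in UM10 labelled K12. The small heat shock protein gene hsp-16.2 was at 522 and 16.9 CPM in UM10 labelled csgA(-) and at 12.1 and 1.297 CPM in N2 (5.35, SE 1.70, adjusted p = 0.0693). The chaperone gene hsp-70 was at 677 and 11.02 CPM in UM10 labelled csgA(-) and at 40.99 and 1.34 CPM in N2 (adjusted p = 0.176). The second UM10 library labelled csgA(-) thus lay below N2 replicate 1 for hsp-70. The median log2 fold change of the 9 genes was 3.83, and -0.07 without the first UM10 library.

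Among 25 other cytosolic chaperone genes, 4 (16%, against 3.95% of all genes tested) were higher and none lower. All 4 encode small heat shock proteins, sip-1, hsp-12.3, hsp-12.6 and hsp-43. The level of sip-1, known for its presence in oocytes and embryos, was 1092 and 770.5 CPM in UM10 labelled csgA(-), 99.0 and 120 CPM in N2 and 924 and 718 CPM in UM10 labelled K12 (3.09, SE 0.52, adjusted p = 0.0105, and 0.0539 and 0.0525 without the first UM10 library and without N2 replicate 1). The level of hsp-12.6 was 8.30 and 7.83 CPM in UM10 labelled csgA(-) and 0.290 and 0.303 CPM in N2 (4.74, SE 0.72, adjusted p = 0.00890, and 0.0617 without N2 replicate 1). None of 9 genes of the mitochondrial unfolded protein response, 18 of the endoplasmic reticulum stress response or 33 of the proteasome was called. The mitochondrial reporter genes hsp-6 and hsp-60 had adjusted p of 0.916 and 0.358, and the endoplasmic reticulum reporter gene hsp-4 had 0.232.

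Of 40 glutathione S-transferase genes, which encode conjugating enzymes of detoxification, 11 (27.5%, against 5.107% of all genes tested) were lower and 1 higher (median -0.97). The reporter gene gst-4, which overlaps dhs-12, was at 3.21 and 2.84 CPM in UM10 labelled csgA(-), at 40.2 and 24.6 CPM in N2 and at 6.09 and 5.01 CPM in UM10 labelled K12 (-3.42, SE 0.47, adjusted p = 0.00620, kept). The level of gst-10 was 18.7 and 14.2 CPM in UM10 labelled csgA(-) and 350.4 and 163 CPM in N2 (-3.96, SE 0.55, adjusted p = 0.00620, kept). The number lower was 2 without N2 replicate 1 and 5 without the first UM10 library. Of 59 UDP-glucuronosyltransferase genes, another class of conjugating enzymes, 13 (22%) were lower and 1 higher. The level of ugt-47 was 20.5 and 20.2 CPM in UM10 labelled csgA(-) and 183 and 124.2 CPM in N2 (-2.92, SE 0.42, adjusted p = 0.00666, kept), whereas ugt-18 was at 3.86 and 6.03 CPM in UM10 labelled csgA(-) and at 0.0724 and 0.0865 CPM in N2, a ratio of 60.9 with a counting interval of 20.8 to 295 (kept). The number of ugt genes lower was 3 without N2 replicate 1 and 7 without the first UM10 library or N2 replicate 2. Of 57 cytochrome P450 genes 4 (7.02%, against 3.95% of all genes tested) were higher and 4 (7.02%) lower. Of those higher, cyp-31A2, cyp-31A3 and cyp-31A5 belong to the family known for its part in the eggshell. They are close paralogs and may share reads.

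Antioxidant enzyme genes were split. Of 26, ctl-1, msra-1 and trx-3 (11.5%, against 5.107% of all genes tested) were lower and ctl-3 and sod-5 (7.69%, against 3.95%) higher. The catalase gene ctl-3 lies next to ctl-1 and was at 8.42 and 7.33 CPM in UM10 labelled csgA(-) and at 1.96 and 2.25 CPM in N2 (1.90, SE 0.50, adjusted p = 0.0390). Its adjusted p was 0.166 and 0.0537 without the first and the second UM10 library, and 0.189 and 0.0717 without the first and the second N2 library. The third catalase gene, ctl-2, was at 85.3 and 147 CPM in UM10 labelled csgA(-) and at 219 and 105 CPM in N2 (adjusted p = 0.544). The catalase genes are paralogs that lie side by side, and reads that map to several places were not counted. The superoxide dismutase gene sod-3 was at 4.77 and 10.2 CPM in UM10 labelled csgA(-) and at 1.52 and 1.51 CPM in N2 (2.30, SE 0.77, adjusted p = 0.0802).

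Genes of defence against microbes moved in both directions. Of 115 C-type lectin genes, 11 (9.57%, against 3.95% of all genes tested) were higher and 12 (10.4%, against 5.107%) lower. The lectin gene clec-60 was at 59.7 and 82.8 CPM in UM10 labelled csgA(-), at 7.17 and 2.08 CPM in N2 and at 85.5 and 29.8 CPM in UM10 labelled K12 (3.97, SE 0.68, adjusted p = 0.0108, kept). The lectin gene clec-80 was at 11.8 and 14.4 CPM in UM10 labelled csgA(-) and at 102 and 59.9 CPM in N2 (-2.63, SE 0.42, adjusted p = 0.00927, kept). Of 60 lysozyme and antimicrobial effector genes, 6 (10%) were higher and 8 (13.3%) lower. Besides ilys-3, ilys-2 was higher, at 3.94 and 11.8 CPM in UM10 labelled csgA(-) against 0.869 and 0.0865 CPM in N2 (adjusted p = 0.0231, and 0.0503 to 0.0614 without the second UM10 library or either N2 library). The gene irg-8, a reporter of infection, was at 191 and 242 CPM in UM10 labelled csgA(-) and at 2301 and 1089 CPM in N2 (-2.97, SE 0.58, adjusted p = 0.0151, and 0.119 and 0.0540 without the first and the second UM10 library). Without N2 replicate 1, 1 lectin was higher and 1 lower, and 1 effector was higher and 1 lower.

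Genes of the pals family, several of which respond to intracellular pathogens, and F-box genes of class A were called mainly higher. Of 23 pals genes 5 (21.7%, against 3.95% of all genes tested) were higher and none lower (median 1.37). The level of pals-14 was 8.79 and 10.9 CPM in UM10 labelled csgA(-), 0.145 and 0.130 CPM in N2 and 6.67 and 0.774 CPM in UM10 labelled K12, a ratio to N2 of 72.6 with a counting interval of 31.1 to 224 (adjusted p = 0.0108, and 0.106 without N2 replicate 1). Of 111 class A F-box genes 13 (11.7%) were higher and 1 lower (median 0.85). The level of fbxa-170 was 5.34 and 4.15 CPM in UM10 labelled csgA(-) and 0.435 and 0.389 CPM in N2 (3.52, SE 0.59, adjusted p = 0.0101, and 0.0640 without N2 replicate 1). Without N2 replicate 1, 0 genes of either family were called, and without the first UM10 library 3 and 6 were higher.

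Genes of neurons, in which the transgene is expressed, had few calls at the level of whole animals, where 9.05% of all genes tested were called. With 2 libraries a group, few calls do not show that few genes differ. Of 22 genes of synaptic vesicle release none was called, and 18 log2 fold changes were negative (median -0.31). Of 95 neuropeptide genes 1 (1.05%) was lower, nlp-30, which is also an antimicrobial peptide of the epidermis. Of the 95, 67 log2 fold changes were negative (median -0.50, and -0.69 without N2 replicate 2). Of 13 genes of dopamine signalling, bas-1, which encodes the decarboxylase that makes dopamine and serotonin, was at 4.11 and 10.9 CPM in UM10 labelled csgA(-) and at 50.3 and 30.9 CPM in N2 (-2.43, SE 0.52, adjusted p = 0.0191, and 0.0841 and 0.120 without the first UM10 library and without N2 replicate 1). The dopamine transporter gene dat-1 was at 1.73 and 3.26 CPM in UM10 labelled csgA(-) and at 2.61 and 2.55 CPM in N2 (log2 fold change -0.05, SE 0.58, adjusted p = 0.967). Over the 13 dopamine genes 11 log2 fold changes were negative (median -0.73). Of 17 worm homologues of Parkinson disease genes, 30 muscle filament genes and 20 insulin-like peptide genes none was called.

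Of 65 chemoreceptor genes that could be tested, 5 (7.69%, against 3.95% of all genes tested) were higher and 4 (6.15%, against 5.107%) lower. The receptor gene srh-237 was at 0.288 and 0.883 CPM in UM10 labelled csgA(-), at 17.5 and 9.81 CPM in N2 and at 16.3 and 18.3 CPM in UM10 labelled K12, so that the libraries labelled csgA(-) stood below both other groups (log2 fold change to N2 -4.52, SE 0.63, adjusted p = 0.00620, kept). The difference of srh-237 from UM10 labelled K12 was not called (adjusted p = 0.0647). The receptor gene str-168 was at 0.0822 and 0.154 CPM in UM10 labelled csgA(-) and at 5.72 and 4.11 CPM in N2 (kept). Of 181 nuclear hormone receptor genes 1 (0.552%) was higher, nhr-2, and 4 (2.21%) were lower. Of 46 histone genes 1 (2.17%) was higher, his-9, and 2 (4.35%) were lower, hil-3 and his-24. In metal handling mtl-1, which was higher, was the 1 gene called of 25 (4%, against 3.95% of all genes tested). Of 29 genes of digestive proteases and lipases asp-8, asp-13 and cpr-8 (10.3%, against 5.107%) were lower.

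By chromosome, 74 (3.42%, against 3.95% of all genes tested) of 2162 genes tested on the X chromosome were higher. Lower there were 167 (7.72%, against 5.107%), and the median log2 fold change of the X chromosome was -0.41. The medians of the autosomes were 0.03 to 0.27, and with a library left out the X median was -0.76 to -0.34. On chromosome V, 145 (4.74%) of 3060 were higher and 215 (7.03%) lower. Genes called in the same direction also stood side by side. There were 14 runs of at least 3 neighbouring genes lower, with 50 genes in all, and 11 runs higher, with 36 genes. The longest run was on chromosome V from 9616031 to 9629214 and held pqn-63, idpc-7, idpc-6, idpc-5, idpc-4 and idpc-3, all lower. On the same chromosome F22B8.7, str-7, cth-1 and argk-1 were lower from 16094584 to 16105952. On the X chromosome the collagen genes col-167, col-168, col-169 and col-170 (6323488 to 6332611) and the lipocalin-related genes lpr-3, lpr-6, lpr-5 and lpr-4 (11057401 to 11066811) were lower, and the calls of lpr-4 and lpr-6 were kept. Neighbours of 1 family can share reads, and counting did not use strand, so such runs are not independent genes.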

How the data were processed

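RNA of whole worms was sequenced in 6 libraries, 3 groups of 2. The authors deposited read counts per gene, 1 table per library with no normalization. The submitters' processing notes name STAR 2.7.5, DESeq2 1.28.1 and the build WBcel235, with no role given. Unstranded counts were used here; the leading summary lines, 7.85% to 8.72% of reads, stayed out of library sizes and tests. Reads mapping to several places (2.57% to 4.05%) were not counted per gene. Symbols and coordinates came from Ensembl release 115 of WBcel235, which held 46603 of 46778 identifiers.

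Groups followed the titles. Genes passed filterByExpr of edgeR 4.0.16 (at least 10 counts, 15 in total), libraries were scaled by TMM, and the quasi-likelihood F test was fitted to all 6 libraries with 3 residual degrees of freedom (R 4.3.3) and checked on simulated data. P-values were adjusted by Benjamini-Hochberg over all 15331 genes and called under 0.05. Standard errors were taken from the log2 fold change and the F statistic. The common dispersion was estimated at 0.152. Folds against a group with no counts use a floor of 3 counts per library, and ratios against a group with few counts carry an exact interval; both cover counting error only. Between replicates the chi-square per degree of freedom was 119 to 172, so no 2 libraries of a group agreed within sampling noise.

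Named genes were, first, the 10 largest log2 fold changes in each direction among called genes with at least 50 mean counts in the higher group. The 10 largest CPM differences in each direction among called genes were added. Both choices required that the libraries of both groups did not overlap, so absence of overlap is no support for these genes. The leading genes of each of 46 lists and a set of fixed genes were added as well. Other named genes were chosen after their values were seen. The libraries compared and the lists were chosen with earlier results of these data known. Alternatives were other scalings, DESeq2 1.42.0, limma 3.58.1, other filters, the stranded columns, a replicate block and leaving out each library.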

Additional observations from a re-analysis of the deposited data

How the results depend on the processing

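UM10 labelled csgA(-) against N2 gave 1388 calls, 605 higher and 783 lower. There were 2584 (1059 and 1525) with DESeq2, 2705 (1283 and 1422) with no filter on low counts, and 349 higher with only the 4 libraries compared. Leaving out each library gave 157 to 1544 calls, 18 to 660 higher and 139 to 884 lower. Against UM10 labelled K12 the 0 calls became 243 with DESeq2, 470 with no filter, 2 with at least 50 counts, 1 and 4 with the first and second stranded column, and 0 to 78 with a library left out, 78 without the second UM10 library labelled csgA(-). The causes were not tested. Of 182 single genes recomputed under the 16 alternatives, 0 of the 124 called and 24 of the 58 not called changed sign in at least 1. The medians of 9 of 46 lists changed sign in at least 1 alternative. Without the first UM10 library labelled csgA(-) these were inducible heat shock (-0.07 in place of 3.83), other chaperones (-0.23 in place of 0.57) and histones (-0.35 in place of 0.34), and without an N2 library they were lysozymes and effectors (0.31 in place of -0.29), antioxidant enzymes (0.09 in place of -0.29) and insulin-like peptides (0.39 in place of -0.70). Those of the endoplasmic reticulum stress response, nuclear hormone receptors and chemoreceptors lay near 0 and changed sign as well. With only the 4 libraries compared, autophagy had 0 genes higher in place of 3, C-type lectins 6 in place of 11, and the proton pump 3 lower in place of 7, while DESeq2 called 22 respiratory chain genes lower in place of 3 and 78 collagen genes in place of 46. Whether the replicate numbers pair the libraries is not settled by these values. Deviations of same-numbered libraries correlated at 0.354 for N2 with UM10 labelled K12. For UM10 labelled csgA(-) they correlated at -0.0789 with N2 and at 0.0933 with UM10 labelled K12. With the replicate block there were 2434 calls against N2, 1188 higher and 1246 lower, and 165 against UM10 labelled K12. With 2 libraries a group and a biological coefficient of variation of 0.390, the spread between replicates rather than depth limits most genes, and depth limits those near 3 counts per library.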
